A study of Mus musculus with 4 samples.

Results

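The 10 genes described here encode members of the BCL2 family, taken by gene symbol from the per-library expression tables. They are the pro-survival genes Bcl2, Bcl2l1 and Mcl1, the effector genes Bax and Bak1, and the BH3-only genes Bid, Bad, Bmf, Bcl2l11 and Bbc3. All 10 were among the 23312 genes of the tables, and all 10 were among the 11017 genes that passed the filter on low values. Messenger RNA had been sequenced from B220+CD43+ pro-B cells sorted from the bone marrow of C57BL/6 mice. The 2 groups were Cnot3(fl/fl) RERTCre mice, with loxP-flanked alleles of Cnot3 and called fl/fl here, and Cnot3(+/+) RERTCre mice, with normal alleles and called +/+, with 2 libraries each from individual mice. Both groups carried RERTCre, a tamoxifen-inducible Cre recombinase, and both received 1 mg tamoxifen on days 1, 2, 4 and 7 before analysis on day 10, so the control mice shared the drug and the recombinase. The labels used here do not name the promoter that drives the recombinase, the age of the mice, or the exons flanked by loxP sites.

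BCL2 family proteins decide at the outer mitochondrial membrane whether a cell enters the intrinsic pathway of apoptosis. Pro-survival members bind and hold the effectors and the BH3-only proteins, BH3-only proteins free or activate the effectors, and the effectors open the membrane so that cytochrome c reaches the apoptosome and its caspases. Developing B cells depend on this balance, since cytokine signals and productive immunoglobulin rearrangement keep them alive and BH3-only proteins remove those that fail. Cnot3 encodes a subunit of CCR4-NOT, which removes poly(A) tails and so starts the decay of mRNAs, and many BCL2 family mRNAs are known to be short-lived. The comparison asked which BCL2 family transcripts differed between the libraries of the 2 genotypes.

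The tables gave FPKM, in which fragments are corrected for transcript length and for the number mapped, and no counts. The absolute depth was unknown, and the spacing of the lowest values put the relative depth of the libraries between 0.748 and 1. Cnot3 itself gave 39.0 and 40.3 FPKM with fl/fl against 41.6 and 39.3 FPKM with +/+. This gene-wide value counts exons that a deletion can leave in place, so the labels could not be checked by it. Replicate 1 of +/+ stood apart in sex-linked transcripts, with the Y-linked gene Eif2s3y at 29.3 FPKM and Xist at 0.024 FPKM, whereas Xist was between 54.3 and 63.1 FPKM in the other 3 libraries. Early B-lineage markers were present, with Dntt, Cd79b and Blnk the most abundant, and their 12 genes summed to 772.3 and 760.9 FPKM with fl/fl against 996.9 and 1392 FPKM with +/+. Of these 12 markers 6 fell and 0 rose, where 3.28% of all tested genes fell and 6.22% rose. The 8 markers of plasmacytoid dendritic cells, led by Bst2, Siglech and Klk1, summed to between 5184 and 6289 FPKM in all 4 libraries, with 1 higher and 1 lower. This sum was above that of the B-lineage markers in every library. The 6 markers of classical dendritic cells summed to 277.8 and 366.2 FPKM against 161.9 and 188.7 FPKM, with 2 of the 5 tested higher. Of 10 neutrophil and monocyte markers 3 rose and 0 fell, with sums of 259.3 and 177.4 against 177.2 and 234.6 FPKM, and of the 9 markers of T and natural killer cells 0 passed the test and 2 had an unadjusted p under 0.05 in limma, whereas the authors' deposited table marked 3 as higher. The T and natural killer markers summed to 858.2 and 651.9 FPKM with fl/fl against 781.8 and 614.2 FPKM with +/+. Their sum was above that of the B-lineage markers in fl/fl replicate 1 and below it in the other libraries. Of 6 erythroid markers 3 were under 1 FPKM in all libraries, and their sums lay between 22.0 and 63.8 FPKM. The members' values are averages over these cells, and in such bulk libraries fewer cells of a type and less RNA per cell cannot be told apart. The part of these markers' differences in the members' values was not tested.

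No member passed the test between the genotypes. Values were compared as log2(FPKM + 1) with limma, with Benjamini-Hochberg adjustment over all 11017 genes and calls at an adjusted p under 0.05. Under this rule 0 of 10 members were higher and 0 were lower, where 9.49% of all tested genes were called. At an unadjusted p under 0.05 the count was also 0 of 10, where 33.8% of all tested genes lay. The authors' deposited table marked Bbc3 alone among the members as significant, 1 higher and 0 lower, where it marked 6.59% of the genes it tested, 4.08% higher and 2.51% lower. The log2 fold changes of the members ran from -0.45 for Bcl2l1 to 0.73 for Bbc3. Their median was 0.18, beside -0.01 over all tested genes. The median size of the change, without regard to sign, was 0.19 for the members and 0.22 for all tested genes.

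The members differed far more from each other than between the genotypes. In both genotypes the order of the mean FPKM began with Mcl1, Bax, Bak1, Bid and Bad, which were apart from each other in every library. The mean of Mcl1 was 144.2 FPKM with fl/fl and 125.2 FPKM with +/+, and that of Bad 25.7 and 22.3 FPKM. The lower 5 genes were Bbc3, Bcl2, Bmf, Bcl2l1 and Bcl2l11, between 5.08 and 23.95 FPKM on average. The step from Bad to Bbc3 was apart in +/+ libraries but not in fl/fl libraries, where Bbc3 was above Bad in replicate 2. Among the lower 5 the order was also less firm, since in fl/fl libraries Bmf, Bcl2l1 and Bcl2l11 overlapped, and in +/+ libraries Bbc3, Bcl2 and Bcl2l1 did. Bmf was last in +/+ libraries and 8th in fl/fl libraries, but it overlapped Bcl2l11 in the former and Bcl2l1 in the latter. These levels are corrected for transcript length. Whether other features of the transcripts affect the order between genes was not tested.

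**Figure D1:**
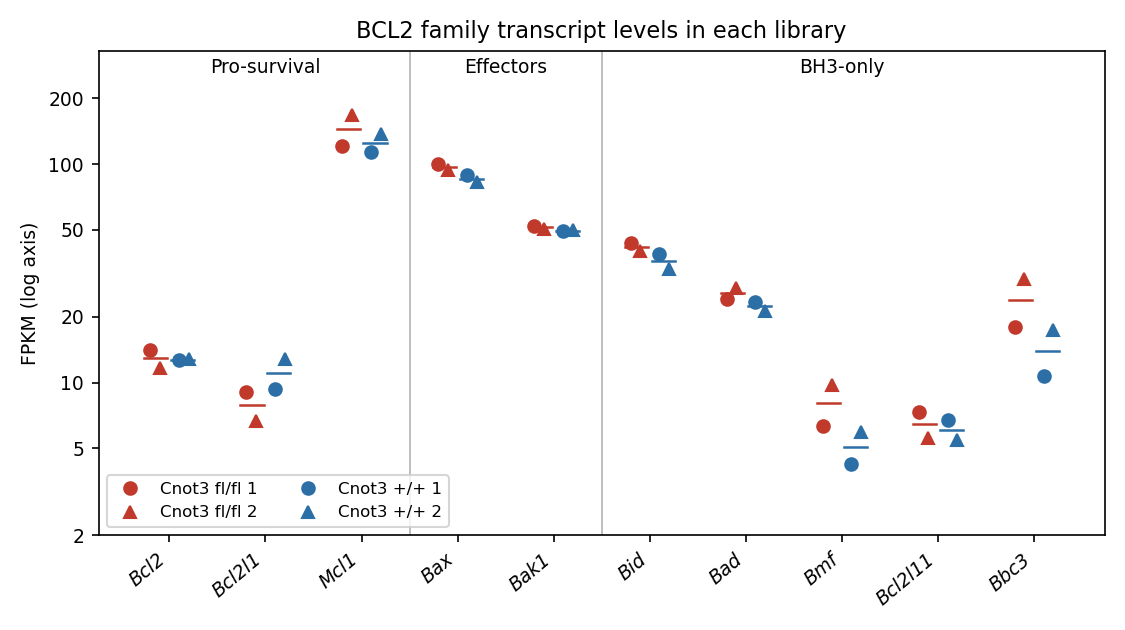
Level of each BCL2 family member in FPKM on a log axis, with 1 point per library (red, fl/fl; blue, +/+; circles, replicate 1; triangles, replicate 2) and a bar at the mean of each genotype. Mcl1 and Bax were the most abundant in all 4 libraries, and the red and blue points of Bcl2, Mcl1 and Bcl2l11 overlapped.

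The 3 pro-survival genes gave differences near 0, above 0 and below 0, and none passed the test. Bcl2, which encodes the founding member of the family, gave 14.1 and 11.7 FPKM in the fl/fl libraries against 12.7 and 12.8 FPKM in the +/+ libraries. The +/+ values lay between the fl/fl values. Its log2 fold change was 0.01 with a standard error of 0.12, and the 95% interval of the fold ran from 0.817 to 1.24 on the scale of FPKM + 1 (limma, adjusted p = 0.96).

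Mcl1, a pro-survival protein with a very short half-life, gave 121.2 and 167.2 FPKM in the fl/fl libraries against 113.2 and 137.3 FPKM in the +/+ libraries. The groups overlapped, and within each genotype the library numbered 2 was the higher. The log2 fold change was 0.19, its standard error also 0.19 (limma, adjusted p = 0.52), and the interval of the fold ran from 0.807 to 1.61. Mcl1 made up 84.0% and 90.1% of the summed FPKM of the 3 pro-survival genes in fl/fl libraries and 83.7% and 84.3% in +/+ libraries.

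Bcl2l1, whose long product BCL-XL protects later B-lineage stages, was the only member with lower values in both fl/fl libraries. It gave 9.05 and 6.70 FPKM there against 9.40 and 12.8 FPKM in the +/+ libraries. The groups did not overlap, but the gap between them was small beside the spread within each. The fl/fl mean was 1.41 times lower, and the log2 fold change of FPKM + 1 was -0.45 with 0.20 as its standard error (limma, adjusted p = 0.20). The FPKM of the gene does not separate BCL-XL from the short, pro-apoptotic splice form of Bcl2l1.

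Both effector genes were nearly level. Bax gave 99.7 and 93.8 FPKM in the fl/fl libraries against 89.2 and 82.5 FPKM in the +/+ libraries, and Bak1 was at 52.1 and 50.5 against 49.5 and 49.8 FPKM. In both genes the fl/fl libraries lay above the +/+ libraries without overlap. The log2 fold changes were 0.17 for Bax and 0.05 for Bak1, with standard errors of 0.09 and 0.07, and neither passed (limma, adjusted p = 0.23 and 0.68). For Bak1 the interval of the fold, 0.909 to 1.17, was the narrowest among the members.

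The BH3-only genes held the largest differences and the largest spread. Bbc3 encodes PUMA, a BH3-only protein that binds every main pro-survival member and is a classic target of p53. It gave 17.9 and 29.9 FPKM in the fl/fl libraries against 10.7 and 17.3 FPKM in the +/+ libraries, means of 23.95 ± 8.48 and 13.99 ± 4.70 FPKM (SD, n = 2 each). The lower fl/fl library was barely above the higher +/+ library, and the library numbered 2 was 1.67 and 1.62 times the library numbered 1 in the 2 genotypes. The ratio of the means was 1.71, and the log2 fold change of FPKM + 1 was 0.73 with 0.32 as its standard error (limma, adjusted p = 0.19). Bbc3 had a q-value of 0.027 in the authors' deposited table and was marked there as significant. With 1 library left out at a time the log2 fold change ran from 0.37 to 1.08, and it was 0.40 when the library with Y-linked transcripts was left out.

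Bmf, a BH3-only protein kept at the cytoskeleton until stress or loss of attachment frees it, followed the same order of libraries. It gave 6.31 and 9.80 FPKM in the fl/fl libraries against 4.24 and 5.92 FPKM in the +/+ libraries. The groups did not overlap, and the library numbered 2 was again the higher in each, by 1.55 and 1.40 times. The ratio of the means was 1.59, and the log2 fold change of FPKM + 1 was 0.56 with 0.25 as its standard error (limma, adjusted p = 0.19). The q-value of Bmf in the authors' deposited table was 0.075. Over the fits that left out 1 library, the log2 fold change of Bmf ran from 0.28 without fl/fl replicate 2 to 0.84 without fl/fl replicate 1. It was 0.36 without the library with Y-linked transcripts.

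Bbc3 was the member with the largest change, and genes were ranked by how closely their 4 values followed its own. The measure was the root mean square difference of log2(FPKM + 1) values, each centred on the gene's mean over the 4 libraries. The closest were Pex11c, Tubb2b and Smim6, with differences of 0.08, 0.09 and 0.11. Bmf ranked 8th with 0.13 and Mcl1 394th with 0.31, whereas Bcl2l1 ranked 9999th with 0.71. This rests on 4 libraries, which these genes share, and describes likeness only.

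**Figure D2:**
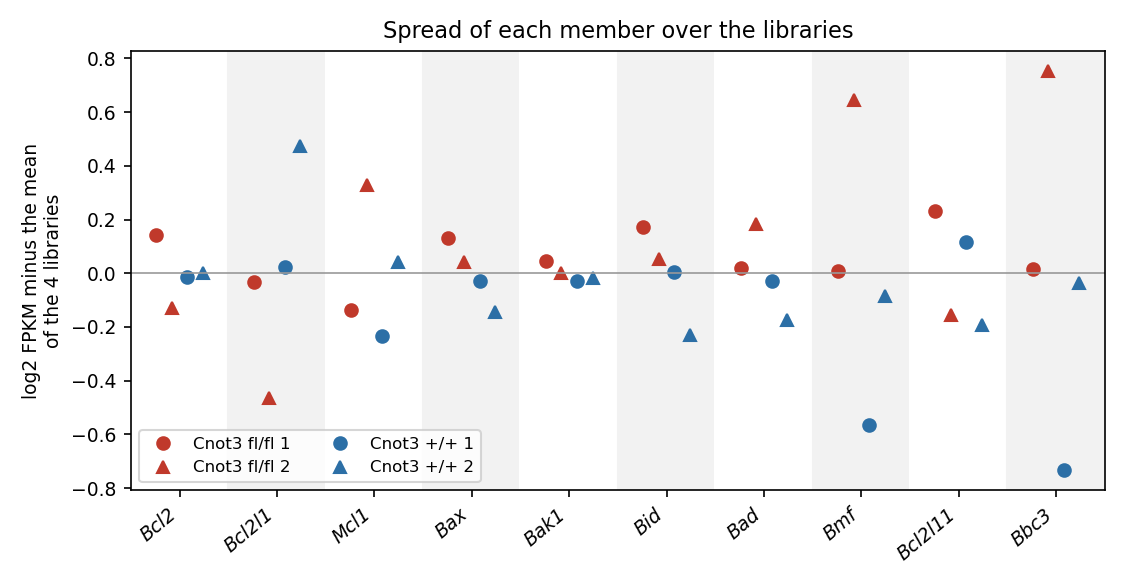
Deviation of each member from its own mean over the 4 libraries, in log2 FPKM (red, fl/fl; blue, +/+; circles, replicate 1; triangles, replicate 2). Bbc3 and Bmf were highest in fl/fl replicate 2 and lowest in +/+ replicate 1, Bcl2l1 was lowest in fl/fl replicate 2, and Bak1 varied least.

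Bid, which caspase-8 cleaves to link death receptors to mitochondria, gave 43.6 and 40.1 FPKM in the fl/fl libraries against 38.7 and 33.0 FPKM in the +/+ libraries. Bad, a BH3-only protein that growth factor signals keep phosphorylated and inactive, was at 24.2 and 27.2 against 23.5 and 21.2 FPKM. Neither gene's groups overlapped, and their log2 fold changes were 0.22 and 0.19 (limma, adjusted p = 0.23 and 0.25). Bcl2l11 encodes BIM, the main killer of lymphocytes deprived of cytokine or bearing self-reactive receptors. It gave 7.31 and 5.58 FPKM in the fl/fl libraries against 6.74 and 5.45 FPKM in the +/+ libraries. These groups overlapped, with the library numbered 1 the higher in each, and the log2 fold change was 0.07 with an interval of the fold from 0.769 to 1.43 (limma, adjusted p = 0.81).

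By role, both fl/fl libraries lay above both +/+ libraries in 6 of the 7 pro-death genes, the exception being Bcl2l11, and in 0 of the 3 pro-survival genes. The same held for 32.7% of all tested genes. Including Bcl2l1 in the other direction, the libraries did not overlap in 7 of 10 members, beside 64.4% of all tested genes, so the count without regard to direction was near the background. The 1 member lower in both fl/fl libraries compares with 31.7% of all tested genes. With 2 libraries per genotype, the smallest p of an exact permutation test on 1 gene is 0.333.

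Sums by role restate the values of the same genes and are not a separate result. The 5 BH3-only genes summed to 99.4 and 112.6 FPKM with fl/fl against 83.9 and 82.9 FPKM with +/+, and the 2 effector genes to 151.8 and 144.3 against 138.7 and 132.3 FPKM. The pro-survival sum, which is mostly Mcl1, was 144.4 and 185.6 against 135.2 and 163.0 FPKM and overlapped. The ratio of summed pro-death to summed pro-survival FPKM within a library was 1.74 and 1.38 in fl/fl and 1.65 and 1.32 in +/+ libraries. The libraries numbered 1 thus had the higher ratio in both genotypes, and the genotypes overlapped. Such ratios do not depend on the scaling between libraries, but they weigh transcripts and not proteins.

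**Figure D3:**
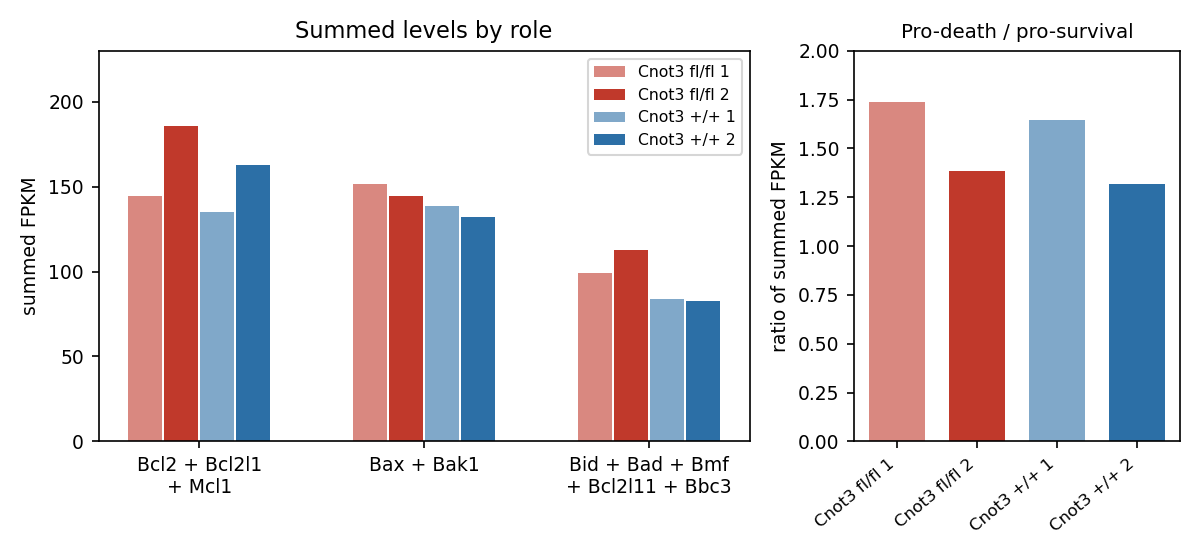
Left, summed FPKM of the pro-survival, effector and BH3-only genes in each library; right, the ratio of the summed pro-death (effector and BH3-only) to the summed pro-survival FPKM. The BH3-only sums of the fl/fl libraries (99.4 and 112.6 FPKM) lay above those of the +/+ libraries (83.9 and 82.9 FPKM), whereas the ratio overlapped between genotypes.

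Single pairs of genes gave ratios that mostly overlapped. The ratio of Bcl2 to Bcl2l1 did not overlap, at 1.56 and 1.74 in fl/fl and 1.35 and 0.998 in +/+ libraries, and the ratio of Bax to Bcl2 was 7.06 and 8.03 against 7.04 and 6.43. Bcl2l11 to Bcl2 was 0.517 and 0.478 against 0.531 and 0.425, an overlap. Bbc3 to Bcl2 was 1.27 and 2.56 against 0.841 and 1.35, where the lower fl/fl value was below the higher +/+ value. The ratios of Bcl2l11 and of Bcl2 to Mcl1 and that of Bmf to Bcl2 overlapped too.

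CCR4-NOT is brought to mRNAs by proteins that bind AU-rich elements and by microRNA complexes, so the 3′ untranslated regions of the members were read from the GENCODE M21 transcripts, taking for each gene the coding transcript with the longest region. An AU-rich heptamer, written in DNA letters as TATTTAT, was searched on the transcript strand. It occurred in all 3 pro-survival genes, with 2 matches in Bcl2, 1 in Bcl2l1 and 3 in Mcl1, and in 1 BH3-only gene, Bcl2l11, with 2. Bax, Bak1, Bid, Bad, Bmf and Bbc3 had none. The first match of each gene is shown with its flanks, the heptamer in capitals, because these sites separate the 4 genes from the other 6.
Bcl2: aaaaaagattTATTTATttaagacagt
Bcl2l1: agcgtgtctgTATTTATgtgtgaggag
Mcl1: aaaacatgtgTATTTATgaaggtggac
Bcl2l11: atattttgacTATTTATtagattagaa

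The 6 members without the heptamer were the same 6 whose fl/fl libraries lay above the +/+ libraries. This was noticed in these values, so it has no test. With the heptamer the log2 fold changes were 0.01 for Bcl2, -0.45 for Bcl2l1, 0.19 for Mcl1 and 0.07 for Bcl2l11. Those of the 6 without it ran from 0.05 for Bak1 to 0.73 for Bbc3, so the sizes of change overlapped between the 2 sets. The regions of the 4 genes with the heptamer were 5086, 1477, 2353 and 4218 bases long for Bcl2, Bcl2l1, Mcl1 and Bcl2l11, and longer regions hold it more often. Among genes with regions of like length, from 80% to 125% of the member's, the share with a match was 67.3% for Bcl2, 33.8% for Bcl2l1, 45.8% for Mcl1 and 61.4% for Bcl2l11. Bmf, with 3801 bases, had no match where 59.3% of such genes did, and Bbc3, with 971 bases, had none where 24.4% did. For Bax, Bak1, Bid and Bad, also without a match, the shares were 6.5%, 28.3%, 32.9% and 25.3%. Across the 10010 tested genes with a region, the 29.7% that hold the heptamer had a median log2 fold change of -0.07 (quartiles -0.26 and 0.13) and the others 0.02 (quartiles -0.20 and 0.26). These 2 groups of tested genes were not matched for the length of the region. A match describes letters and is not a binding site.

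MicroRNAs are known regulators of this family in lymphocytes, the miR-17-92 cluster for Bcl2l11, miR-15 and miR-16 for Bcl2, and miR-29 for Mcl1. The mature sequences, from RefSeq (GRCm38.p6), are shown with the seed, bases 2 to 8, in capitals. Each of the 4 has its own seed.
miR-17-5p: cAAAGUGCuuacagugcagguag
miR-92a-3p: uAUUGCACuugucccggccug
miR-16-5p: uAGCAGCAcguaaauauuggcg
miR-29b-3p: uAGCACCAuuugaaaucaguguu

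Matches to these seeds were unequal among the members. Bcl2l11 had 2 matches to miR-17-5p, 2 to miR-92a-3p and 1 to miR-29b-3p, where 31.1%, 18.0% and 35.6% of genes with regions of like length had any. Bcl2 had 1 match to miR-16-5p and 1 to miR-17-5p, where 54.1% and 37.2% of such genes had any. Mcl1 had 1 each to miR-17-5p, miR-92a-3p and miR-29b-3p, beside shares of 19.4%, 10.9% and 21.9%. Bbc3 had 2 to miR-29b-3p, where 9.8% of such genes had any. Bcl2l1 and Bax had none of the 4 kinds of match, and the other 8 members had at least 1. The 4 matches of Bcl2l11 to the miR-17-92 cluster and that of Bcl2 to miR-16-5p are shown in capitals. They come from the pairs named as known. The match of Mcl1 to miR-29b-3p, also from such a pair, is not shown.
Bcl2l11, miR-17-5p, first: tggtggaggaGCACTTTctaacctgtg
Bcl2l11, miR-17-5p, second: cccgactggaGCACTTTactgtctcag
Bcl2l11, miR-92a-3p, first: aaatgtctctGTGCAATtgtgttccct
Bcl2l11, miR-92a-3p, second: cactgtacctGTGCAATactgctgtaa
Bcl2, miR-16-5p: agaaaccctgTGCTGCTatcctgccaa

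The levels of Bcl2 and Bcl2l11 overlapped between the genotypes, as described for each. Mir17hg, the host transcript of the cluster, gave 1.78 and 1.52 FPKM with fl/fl against 1.86 and 2.34 FPKM with +/+ and missed the threshold (limma, adjusted p = 0.38). The mature microRNAs were not measured. Tested genes with a miR-17-5p match had a median log2 fold change of -0.04 and those without 0.00. The medians were -0.09 and 0.00 for miR-92a-3p, -0.05 and 0.01 for miR-16-5p, and -0.05 and 0.00 for miR-29b-3p. Length of the region was not matched here either.

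Of the members, Bmf was nearest to Bbc3 in the likeness measure, so the 250 bases before the first of the 3 starts listed for each are shown. They are read from RefSeq windows of GRCm38.p6, whereas the authors' files use mm9, in which Bbc3 spans chromosome 7 from 16894931 to 16903683 and Bmf chromosome 2 from 118354492 to 118375414. Capitals mark GGGCGG, the GC box, on either strand, and in Bmf a decamer of the p53 response element.
Bbc3, chr7:16309333-16309582, plus strand: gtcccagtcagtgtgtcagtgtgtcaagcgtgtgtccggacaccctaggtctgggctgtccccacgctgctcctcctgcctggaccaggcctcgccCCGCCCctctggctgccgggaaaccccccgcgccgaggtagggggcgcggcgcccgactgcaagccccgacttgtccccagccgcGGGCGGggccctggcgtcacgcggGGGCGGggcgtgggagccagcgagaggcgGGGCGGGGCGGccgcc
Bmf, chr2:118544588-118544837, minus strand: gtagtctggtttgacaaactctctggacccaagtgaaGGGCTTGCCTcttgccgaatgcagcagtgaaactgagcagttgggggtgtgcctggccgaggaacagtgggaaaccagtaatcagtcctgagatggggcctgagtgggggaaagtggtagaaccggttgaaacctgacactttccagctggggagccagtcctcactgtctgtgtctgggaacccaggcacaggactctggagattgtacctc

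The 2 windows had little in common. The Bbc3 window was 76.4% G and C with 5 GC boxes, and the Bmf window was 55.6% G and C with 0, where 32.7% of the 32851 RefSeq windows of this length hold at least 1 and the median is 52.4% G and C. The single p53 decamer in the Bmf window is found in 7.1% of windows, and a full p53 response element, 2 decamers up to 13 bases apart, was found in no member's window and in 0.1% of all. Before the other 2 starts listed, the Bbc3 windows held 1 and 7 GC boxes and the Bmf windows 0 and 0. The window of Bax also held 1 p53 decamer. All motifs were searched on both strands, and which start these cells used was not measured.

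Genes that act around the family were read from lists chosen by role. Of 14 other BCL2 family genes, 7 passed the filter on low values, 0 rose and 0 fell, where 6.22% of all tested genes rose and 3.28% fell, and the median log2 fold change of the 7 was 0.12. At an unadjusted p under 0.05 limma had 2 of the 7, where 33.8% of all tested genes lay. The authors' deposited table marked 0 of these genes. Bcl2l14, which encodes the family member BCL-G, gave 2.79 and 3.79 FPKM in the fl/fl libraries against 1.74 and 1.48 FPKM in the +/+ libraries. Its log2 fold change of 0.71 did not pass (limma, adjusted p = 0.071). Bcl2l12 had -0.26 and the pro-survival paralog Bcl2a1b 0.25 (adjusted p = 0.12 and 0.26), and reads of the near-identical Bcl2a1 copies may be shared among them. Pmaip1, which encodes the BH3-only protein NOXA, gave 11.7 and 53.3 FPKM in the fl/fl libraries against 9.43 and 39.0 FPKM in the +/+ libraries. The libraries numbered 2 were 4.55 and 4.14 times those numbered 1, a wider gap than in Bbc3 and Bmf, and the genotypes overlapped. Pmaip1 was named after its values were seen.

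Downstream of the mitochondria, 3 of 18 tested genes rose and 0 fell, where 6.22% of all tested genes rose and 3.28% fell. The median log2 fold change of the 18 was 0.15. Casp6, an executioner caspase, gave 43.6 and 46.2 FPKM in the fl/fl libraries against 31.0 and 24.3 FPKM in the +/+ libraries. The mean rose 1.62-fold, and the log2 fold change of FPKM + 1 was 0.69 (limma, adjusted p = 0.047). Apaf1, the scaffold of the apoptosome, rose from 16.2 and 16.4 FPKM to 22.4 and 21.4 FPKM (log2 fold change 0.41, adjusted p = 0.046). Aifm1, a mitochondrial flavoprotein released during cell death, rose from 14.6 and 15.4 FPKM to 19.96 and 20.4 FPKM (log2 fold change 0.40, adjusted p = 0.049). Only Casp6 of these 3 was marked in the authors' deposited table, with a q-value of 0.025. Casp9, the caspase that Apaf1 activates, had 0.38, Dffb, the caspase-activated nuclease, 0.28, and Vdac1, a channel of the outer membrane, -0.28, and these did not pass (limma, adjusted p = 0.083, 0.098 and 0.086). Cycs, which encodes cytochrome c and was named outside the rule, was under 0.4 FPKM in all 4 libraries and was not tested, and reads of its processed copies may be shared.

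Among 12 genes of the death receptor pathway 0 rose and 0 fell, with a median log2 fold change of 0.14. At an unadjusted p under 0.05 limma had 4, 2 in each direction, where 33.8% of all tested genes lay. The authors' deposited table marked 0 of the 12. The adaptor Fadd gave 8.76 and 8.87 FPKM in the fl/fl libraries against 6.25 and 5.29 FPKM in the +/+ libraries, a difference of 0.54 on the log2 scale (limma, adjusted p = 0.055). The receptor-bound kinase Ripk1 had 0.45 (adjusted p = 0.051). The count of 0 higher rests on these values close to the threshold: Ripk1 passed with a minimum mean of 5 FPKM, with median-ratio rescaling and with robust eBayes (limma, adjusted p = 0.044, 0.047 and 0.040), and Fadd with robust eBayes (0.046). Cflar, which encodes the caspase-8 inhibitor FLIP, was at 9.28 and 9.20 against 13.6 and 11.7 FPKM, with a log2 fold change of -0.41 (adjusted p = 0.074). Fadd and Ripk1 had no overlap above and Cflar none below. In either direction the libraries did not overlap in 10 of the 12 genes, beside 64.4% of all tested genes.

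Of 20 tested regulators of the family's expression or turnover, 2 rose and 0 fell, where 6.22% of all tested genes rose and 3.28% fell. The median log2 fold change of the 20 was -0.09. Pim2, a kinase downstream of cytokine receptors that phosphorylates Bad, gave 93.5 and 94.9 FPKM in the fl/fl libraries against 38.6 and 39.0 FPKM in the +/+ libraries. This 2.43-fold rise was wide beside the spread within either genotype (log2 fold change 1.26, standard error 0.07, limma adjusted p = 0.018), and the authors' deposited table gave a q-value of 0.0022. Stat5a, a transcription factor that carries the IL-7 signal to Bcl2 family genes, rose from 26.3 and 24.4 FPKM to 34.6 and 35.8 FPKM (log2 fold change 0.46, limma adjusted p = 0.043). Its authors' q-value in the deposited table was 0.14. Stat5b, of the same list, was at 36.6 and 37.1 FPKM with fl/fl against 38.7 and 33.4 FPKM with +/+. The log2 fold change of Stat5b was 0.03 (limma, adjusted p = 0.83). Trp53, the activator of Bbc3 and Bax, gave 65.4 and 71.9 FPKM in the fl/fl libraries against 62.9 and 49.6 FPKM in the +/+ libraries and missed the threshold (log2 fold change 0.29, limma adjusted p = 0.21). Dynll2, the dynein light chain that holds Bmf, had -0.47, Huwe1, the ligase that marks Mcl1 for degradation, -0.41, and the receptor kinase Jak1 0.40 (adjusted p = 0.058, 0.061 and 0.077).

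**Figure D4:**
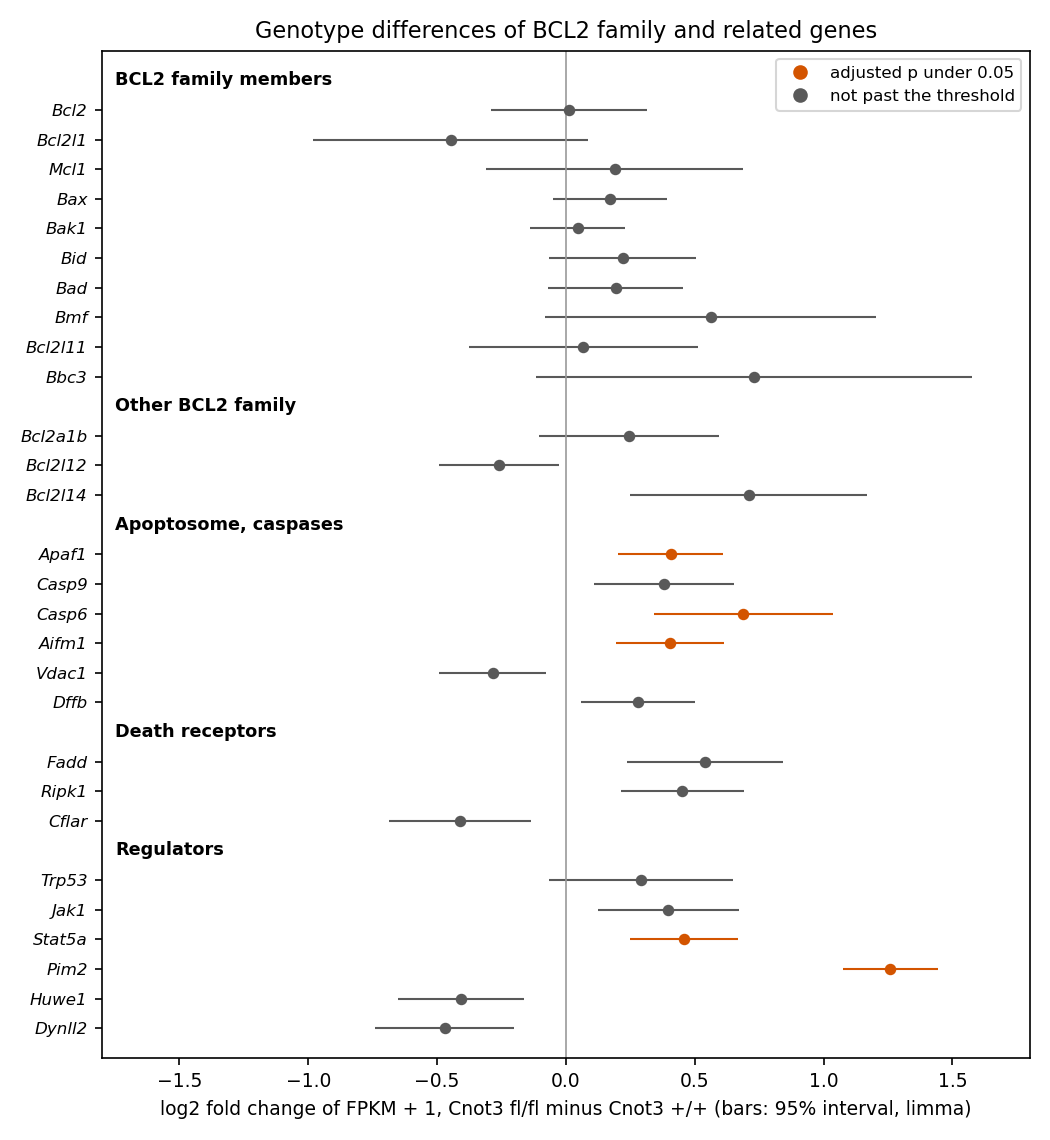
Log2 fold change of FPKM + 1 between fl/fl and +/+ libraries with 95% intervals (limma) for the 10 members and for the named genes of 4 related lists, coloured where the adjusted p was under 0.05. The intervals of all 10 members cross 0, and the coloured genes are Apaf1, Casp6, Aifm1, Stat5a and Pim2.

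All of these 5 calls were lost in each fit that left out 1 library, where the lone library of a genotype is assumed to vary like the others and between 2 and 34 genes in all were called higher. All 5 were also lost without the filter on low values, and all but Pim2 with eBayes without the trend. Without the library with Y-linked transcripts, 0 of 10 members and 0 of these genes were called. Aifm1 and Pim2 lie on the X chromosome. Only 1 of the 2 +/+ libraries had Xist above 1 FPKM. The 2 +/+ libraries gave 14.6 and 15.4 FPKM for Aifm1 and 38.6 and 39.0 FPKM for Pim2. The part of sex in the differences of Aifm1 and Pim2 was not tested.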

How the data were processed

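Per the file headers, the authors deposited FPKM per gene for each library. They also deposited a comparison of the genotypes, whose p-value and q-value columns are quoted as theirs. The submitters' processing notes name Cufflinks 2.2.1, Cuffnorm 2.2.1, TopHat2 2.0.13, Bowtie2 2.2.3.0 and mm9. The role of each, the annotation, any use of strand and how libraries were scaled were not given in the sources used here. Total RNA was made into libraries with a stranded mRNA kit and 15 PCR cycles, per the labels' protocols.

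A gene was tested if its 4 libraries averaged 1 FPKM or more, as log2(FPKM + 1) with limma 3.58.1 in R 4.3.3 (eBayes with a mean-variance trend, two-sided, genotype as the only term, 2 residual degrees of freedom). The procedure was tested on simulated data. Log2 fold changes on this scale understate the change of low genes, whereas ratios are of mean FPKM. The values hold no counts, so no count test was run. Relative depth came from genes under 0.3 FPKM in a pair of libraries, as the ratio of values most genes shared within 0.5%. It held for 11.8% to 13.3% of them.

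The members, the gene lists and the tests were chosen with earlier results of these data known. All members, Cnot3 and Trp53 were named, and from each related list every gene past the threshold and up to 3 others with the smallest p. The 3 most abundant were named from the early B-lineage and the plasmacytoid dendritic marker lists, and no gene from the other marker lists. Cycs, Stat5b, Mir17hg, Mdm2, Cdkn1a, Xist and Eif2s3y were named outside this rule. For 3′ regions, motif and promoter searches GENCODE M21 and RefSeq (GRCm38.p6) sequences were matched by symbol for 10 of 10 members. Alternatives were other pseudocounts (0.1 and 5), filters, scalings, variance models, a replicate block and leaving out each library.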

Additional observations from a re-analysis of the deposited data

How the results depend on the processing

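Under 13 alternatives, 0 of 10 members were called in 12, and 1 was called higher, Bbc3, with the replicate number as a block (adjusted p = 0.040, log2 fold change 0.73). The labels number the libraries 1 and 2 in both genotypes but do not say that a number marks a shared animal, litter or day, and deviations of same-numbered libraries had a Pearson r of 0.14 across 11017 genes. With this block 456 genes were higher, and 1 of the related genes. Without a filter on low values 4 genes were higher and 1 lower, and 0 related genes higher. With eBayes without the trend 242 were higher and 69 lower, and 1 related gene higher. In quantile normalization and in robust eBayes 1 related gene was lower, Dynll2. Quantile normalization also lost Casp6 (adjusted p = 0.051, 4 related genes higher) and a pseudocount of 5 lost Aifm1 (0.051, 4 higher). Ripk1 was gained with a minimum mean of 5 FPKM and with median-ratio rescaling (6 higher each), and Ripk1 and Fadd with robust eBayes (7 higher). With 1 library left out, 2 to 34 genes were higher and 0 to 20 lower, and 0 related genes were higher. These compare with 685 higher and 361 lower genes and 5 related genes higher, and the cause of each difference was not tested. With 1 library left out, the sign changed for Bcl2 (-0.12 to 0.14), Bcl2l11 (-0.10 to 0.24), Mcl1 (-0.04 to 0.42) and Cnot3 (-0.067 to 0.012), and Bcl2l1 stayed between -0.65 and -0.24. Absolute depth is unknown, and 2 libraries per genotype limit the precision.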

Other observations

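Bok, an effector-like BCL2 family gene, was under the filter and was named after its values were seen. It was at 0.098 FPKM and listed at 0 with fl/fl, against 1.00 and 1.66 FPKM with +/+. In the authors' deposited table its q-value was 0.37. Bcl2l10, Hrk and Bcl2a1c were listed at 0 in all 4 libraries.

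Ddit3 and Pim1, of the list of regulators, were also named after their values were seen, and their libraries differed more within a genotype than between genotypes. Ddit3, which encodes the stress factor CHOP, gave 20.2 and 43.6 FPKM in the fl/fl libraries against 24.8 and 45.2 FPKM in the +/+ libraries. Pim1, the kinase related to Pim2, was at 69.6 and 106.1 against 47.6 and 103.7 FPKM. In both genes, as in Pmaip1, the library numbered 2 was the higher in each genotype. Mdm2 and Cdkn1a, p53 targets outside the family, had log2 fold changes of -0.31 and 0.13 (limma, adjusted p = 0.068 and 0.82).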
